A study of Homo sapiens with 9 samples.

Results

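The SLC2A family encodes the facilitative sugar transporters, whose proteins are named GLUT with a number, and its members were taken as the rows of both deposited count tables whose symbol starts with SLC2A followed by a digit. There were 12 such rows among the 12854 in both tables. Of these, 11 encode transporters, and *SLC2A4RG*, which encodes a transcription factor that binds the promoter of *SLC2A4*, entered by its symbol and was counted apart. GENCODE 29 lists 15 protein-coding genes with such names, and *SLC2A5*, *SLC2A7* and *SLC2A12* were not analysed here.

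The SLC2A proteins span the membrane many times and let hexoses run down their gradient without spending energy. Hepatocytes rely on *SLC2A2* (GLUT2), a low-affinity carrier that passes glucose in both directions, whereas proliferating and tumour cells take up glucose mainly through *SLC2A1* (GLUT1) and *SLC2A3* (GLUT3), which have a higher affinity. Several relatives carry other cargo, such as urate, fructose, dehydroascorbate or inositol, or sit on membranes inside the cell.

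The study asked how the long non-coding RNA *TUG1* shapes the transcriptome of hepatocellular carcinoma cells. The data are 9 RNA-seq libraries of HepG2, an established human liver cancer line grown in low-glucose medium, with 3 libraries in the control group (sh-Con) and 3 for either knockdown line (sh1-*TUG1*, sh2-*TUG1*). The sh-Con libraries carry the genotype label WT, and the others are labelled as *TUG1* knockdown, by 1 of 2 hairpins each. By the study's methods, every line, sh-Con included, carries a lentiviral Tet-pLKO-Puro vector whose hairpin is switched on by doxycycline, and each hairpin is represented by 1 stable line. The design text calls the replicates technical, so the SD and the p-values measure the spread between these libraries, which may not cover the spread between cultures, and the hairpin and the line cannot be told apart. *TUG1* itself was not analysed here, so the labels were not checked against it.

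Library totals ranged from 33051617 to 39393293 counts, and the lowest count of a family row in any library was 247, in *SLC2A14*. Replicates differed from each other by more than read sampling. Of the liver markers, 9 of 9 had a row in both tables, at 67.6 to 25399 CPM (CPM, a gene's count per 1000000 counts of a library after TMM scaling). Of 6 markers of other cells, *CD68*, *PECAM1* and *VWF* had rows, and *PTPRC*, *COL1A1* and *COL3A1* had none. The summed level of *CD68*, *PECAM1* and *VWF* was 68.4 to 81.2 CPM in sh-Con, 45.0 to 49.6 CPM with sh1-*TUG1* and 29.8 to 37.6 CPM with sh2-*TUG1*, and *CD68*, a lysosomal protein gene, made up most of it. Mean *CD68* was 63.7 CPM in sh-Con, 35.2 with sh1-*TUG1* and 20.8 with sh2-*TUG1*, whereas *PECAM1* was at 7.64, 7.95 and 8.33 CPM and *VWF* was at 1.49, 3.96 and 4.70 CPM. The part of these markers in the results below was not tested. In bulk RNA, fewer cells that express a gene and less RNA per cell cannot be told apart.

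The study examined *TUG1* together with miR-122-5p, a microRNA abundant in liver. A microRNA pairs with the 3′ UTR of its targets mainly through its seed, bases 2 to 8, which is in capitals here. The mature sequence, from RefSeq, lies at chr18:58451088-58451109 on the plus strand of GRCh38.p14.
hsa-miR-122-5p: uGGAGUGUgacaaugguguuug

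Letters that pair with all or most of the seed were searched in the 3′ UTR of 1 principal transcript per gene in GENCODE 29 (GRCh38). They were ACACTCC, which pairs with the whole seed, or CACTCCA. The latter, a match type named 7mer-A1, leaves out base 8 of the seed, and its last A lies opposite base 1. Of the 12 family genes, 4 held such letters, 1 match each, and all of these were CACTCCA. The stretches in *SLC2A3* and *SLC2A14* are shown because they tie these genes to each other, with the match in capitals. They lie at chr12:7921268-7921296 (minus strand) in *SLC2A3* and chr12:7814170-7814198 (minus strand) in *SLC2A14*.
SLC2A3: ctcatcccacgCACTCCAtgagcacccca
SLC2A14: ctcatcccacgCACTCCAtgagcacccca

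The stretch was the same in *SLC2A3* and *SLC2A14*, 128 and 129 bases into the 3′ UTR. *SLC2A1* and *SLC2A2* held neither set of letters in 3′ UTRs of 1666 and 1555 bases. Over all 18924 protein-coding genes with a 3′ UTR, 18.8% held a match, and over the 11634 of them with a row in both tables, 21.0%. A match is a description of letters, not a tested site.

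*SLC2A14* arose as a copy of *SLC2A3* and lies beside it on chromosome 12. Their coding sequences matched at 1440 of 1491 aligned bases (96.6%), whereas *SLC2A1* matched *SLC2A3* at 69.1% and *SLC2A4*, its closest relative among the members, at 70.1%. The 30 coding bases with the most mismatches between the copies are shown with the 5 differing bases in capitals, at chr12:7930571-7930600 in *SLC2A3* and chr12:7828795-7828824 in *SLC2A14*, both on the minus strand of GRCh38.
SLC2A3, coding bases 553 to 582: ccgCtgctaCtGggTtttaccatccttccT
SLC2A14, coding bases 625 to 654: ccgGtgctaTtAggCtttaccatccttccA

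Of all windows of 100 bases in the principal *SLC2A3* transcript, 7.05% occurred unchanged in any annotated *SLC2A14* transcript. Of windows of 50 bases, 23.0% did, and of windows of 150 bases, 1.83%. How the authors' counting treated reads that fit both copies is not given in the sources used here, so the split of counts between *SLC2A3* and *SLC2A14* is uncertain.

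*SLC2A1* and *SLC2A3*, the carriers that dominate glucose uptake in most tumour cells, fell in both knockdown lines. *SLC2A1* fell to 0.634 of sh-Con in sh1-*TUG1* and to 0.682 in sh2-*TUG1*. *SLC2A3* fell to 0.365 of sh-Con in sh1-*TUG1* and to 0.103 in sh2-*TUG1*. *SLC2A2*, the hepatocyte carrier, rose in both lines.

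*SLC2A1* (ENSG00000117394, chr1:42925375-42959176, minus strand) had 1254, 1173 and 1139 CPM in the sh-Con libraries. The sh1-*TUG1* libraries had 745, 765 and 751 CPM, and the sh2-*TUG1* libraries 806, 811 and 821 CPM. Every knockdown library lay below every control library, and the sh1-*TUG1* libraries also lay below all sh2-*TUG1* libraries. Tests used edgeR's quasi-likelihood model on all rows, with p-values adjusted after Benjamini and Hochberg. By that test the log2(fold change) was −0.66 for sh1-*TUG1* (standard error 0.043, adjusted p = 8.93e-06, edgeR). It was −0.55 (standard error 0.046, adjusted p = 1.83e-05 by the same edgeR test) in sh2-*TUG1*. A row was called a DEG at an adjusted p under 0.05 and a fold change over 1.5. *SLC2A1* was thus a DEG in sh1-*TUG1* (1.58-fold lower) and just missed the fold limit in sh2-*TUG1* (1.47-fold lower). The difference between the lines was 0.11 on the log2 scale (standard error 0.040, adjusted p = 0.0479 by edgeR in a fit of all 9 libraries). That call was lost with library size as the only scaling, where the difference was 0.04 (adjusted p = 0.361), and p ranged from 0.00862 to 0.361 over 18 alternatives. It was also lost without sh-Con replicate 2, or without any 1 of the sh1-*TUG1* or sh2-*TUG1* libraries.

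*SLC2A3* (ENSG00000059804, chr12:7919230-7936275, minus strand) had 10494, 11946 and 12154 counts in sh-Con, 4205, 4454 and 4473 in sh1-*TUG1*, and 1088, 1041 and 1469 in sh2-*TUG1*. On the CPM scale these were 320.1, 353 and 326 in sh-Con, 123, 123 and 119 in sh1-*TUG1* libraries, and 33.5, 31.2 and 38.1 in sh2-*TUG1*. The 3 groups did not overlap, and the sh2-*TUG1* libraries were the lowest. Its log2(fold change) was −1.45 (standard error 0.049) for sh1-*TUG1* and −3.28 (standard error 0.080) for sh2-*TUG1*, with adjusted p of 3.14e-07 and 4.00e-08 by edgeR's quasi-likelihood test. In order of log2(fold change), with the most lowered row first, *SLC2A3* ranked 29 of 13017 rows with sh1-*TUG1* and 5 of 12953 in sh2-*TUG1*, whereas *SLC2A1* ranked 352 and 1471. The fall in *SLC2A3* was larger in sh2-*TUG1* than in sh1-*TUG1*, by 1.83 on the log2 scale (standard error 0.068, adjusted p = 5.34e-08 by edgeR over 9 libraries).

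*SLC2A14* (ENSG00000173262, chr12:7812512-7891148, minus strand) had 17.8, 17.5 and 18.0 CPM in sh-Con, 12.2, 12.5 and 14.03 in sh1-*TUG1*, and 7.75, 7.39 and 8.06 CPM in sh2-*TUG1*. The groups again stood apart in the order seen for *SLC2A3*. Its log2(fold change) was −0.46 (standard error 0.085, adjusted p = 0.00395, edgeR) for sh1-*TUG1* and −1.20 (standard error 0.088, adjusted p = 8.47e-06) in sh2-*TUG1*. Both falls were smaller in size than those of *SLC2A3*, and *SLC2A14* counts went from 4.95–5.55% of *SLC2A3* counts in sh-Con to 9.87–11.8% with sh1-*TUG1* and 21.2–23.7% in sh2-*TUG1*. With the counts of both genes summed into 1 row, which was tried only after the data had been seen, the log2(fold change) came to −1.38 for sh1-*TUG1* and −3.06 for sh2-*TUG1*.

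**Figure D1:**
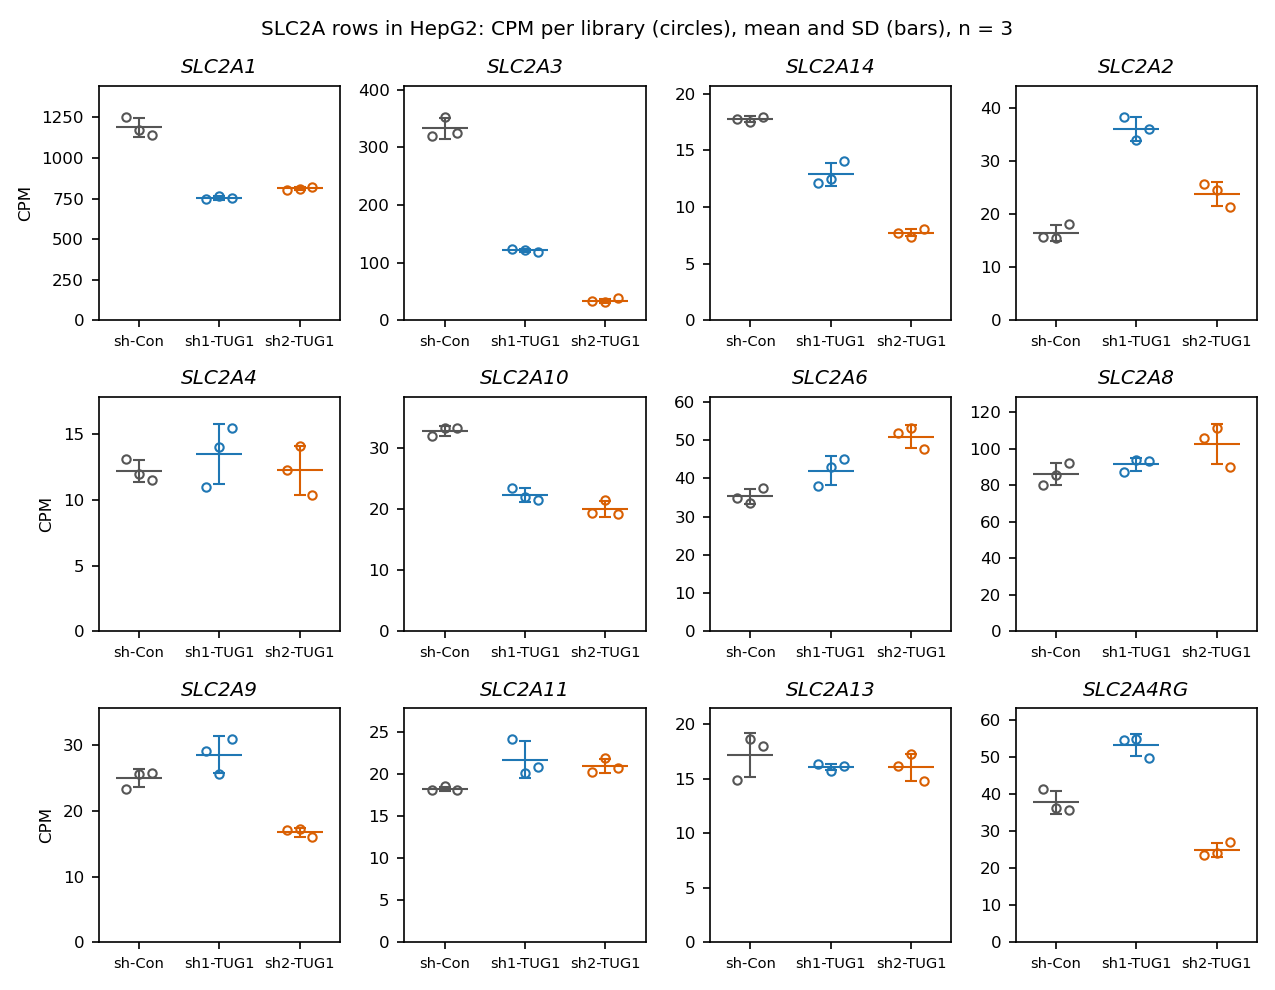
CPM (linear axes from 0) of the 12 SLC2A rows in sh-Con, sh1-*TUG1* and sh2-*TUG1*, 1 panel per gene; circles are the 3 libraries, wide bars the mean and capped bars the SD. *SLC2A3* falls from 333 to 122 and 34.2 CPM on average with no overlap of groups, *SLC2A1* from 1189 to 754 and 812 CPM, and *SLC2A2* is highest in sh1-*TUG1*.

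*SLC2A2* (ENSG00000163581, chr3:170996348-171026750, minus strand) was at 15.7, 15.5 and 18.2 CPM in sh-Con. It was at 38.5, 34.0 and 36.0 CPM with sh1-*TUG1* and at 25.8, 24.6 and 21.3 CPM in sh2-*TUG1*. All knockdown libraries lay above all control libraries, with sh1-*TUG1* the highest. The log2(fold change) was 1.13 (standard error 0.083, adjusted p = 1.87e-05) in sh1-*TUG1*, which ranked 75 from the top of 13017 rows, and 0.53 (standard error 0.097, adjusted p = 0.00194) in sh2-*TUG1*, both by edgeR. The rise was smaller in sh2-*TUG1* by 0.60 on the log2 scale (standard error 0.086, adjusted p = 0.000201, edgeR). The comparisons of the lines with sh-Con share the same 3 control libraries.

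*SLC2A4* (GLUT4), the insulin-responsive carrier of muscle and fat, was at 11.5 to 13.1 CPM in sh-Con, 10.98 to 15.5 CPM with sh1-*TUG1* and 10.3 to 14.1 CPM in sh2-*TUG1*. The 3 groups overlapped. Its log2(fold change) was 0.15 (standard error 0.13) for sh1-*TUG1* and 0.00 (standard error 0.12) in sh2-*TUG1*, and neither passed the edgeR test (adjusted p = 0.438 and 0.992).

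*SLC2A10* (GLUT10), which is known as a carrier of dehydroascorbate and is altered in arterial tortuosity syndrome, fell in both lines. It had 31.9, 33.4 and 33.2 CPM in sh-Con, 23.5, 21.95 and 21.5 in sh1-*TUG1*, and 19.3, 21.6 and 19.2 CPM in sh2-*TUG1*. The control libraries lay above all the others, and the knockdown lines overlapped. The log2(fold change) was −0.56 (standard error 0.063, adjusted p = 0.000251) and −0.72 (standard error 0.068, adjusted p = 4.34e-05) by edgeR, past the fold limit of a DEG in sh2-*TUG1*. The lines differed by −0.16 (standard error 0.066), which did not pass (adjusted p = 0.0774, edgeR). This held in 16 of 18 alternatives and the difference passed in the others, with adjusted p from 0.0195 to 0.237 (edgeR or DESeq2).

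*SLC2A9* (GLUT9), a urate carrier, had 23.3, 25.6 and 25.8 CPM in sh-Con, 29.1, 25.5 and 30.9 in sh1-*TUG1*, and 17.0, 17.2 and 15.96 CPM in sh2-*TUG1*. The sh2-*TUG1* libraries were the lowest and stood apart from both other groups, which overlapped. It fell in sh2-*TUG1* by 0.58 on the log2 scale (standard error 0.074, adjusted p = 0.000254, edgeR), just short of the fold limit of a DEG. In sh1-*TUG1* the log2(fold change) was 0.19 (standard error 0.084, adjusted p = 0.121, edgeR), and the difference between the lines was −0.77 (adjusted p = 1.71e-05).

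*SLC2A6* (GLUT6), a carrier of lysosomal membranes, rose in both lines. Its libraries had 34.9, 33.5 and 37.4 CPM in sh-Con, 37.9, 42.9 and 45.2 in sh1-*TUG1*, and 51.8, 53.2 and 47.6 CPM in sh2-*TUG1*. The 3 groups did not overlap, though the highest control library lay close to the lowest sh1-*TUG1* library. The log2(fold change) was 0.25 (standard error 0.076, adjusted p = 0.0384) for sh1-*TUG1* and 0.52 (standard error 0.068, adjusted p = 0.000265) in sh2-*TUG1*, by edgeR. The call in sh1-*TUG1* was lost without sh-Con replicate 1 (adjusted p = 0.0532) or 2 (0.128), or without sh1-*TUG1* replicate 2 (0.117) or 3 (0.149), with p from 0.0195 to 0.149 over 15 alternatives. The rise was larger in sh2-*TUG1* by 0.28 (adjusted p = 0.00984, edgeR over 9 libraries).

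*SLC2A8* (GLUT8), a carrier held inside the cell, had 80.3, 85.7 and 92.1 CPM in sh-Con, 87.2, 94.0 and 93.1 in sh1-*TUG1*, and 106, 112 and 90.2 CPM in sh2-*TUG1*, and the groups overlapped. It passed in sh2-*TUG1* with a log2(fold change) of 0.25 (standard error 0.084, adjusted p = 0.0361, edgeR), but not in sh1-*TUG1*, where it was 0.09 (adjusted p = 0.347). The call in sh2-*TUG1* was lost in 6 of 15 alternatives. *SLC2A11* (GLUT11), a carrier of glucose and fructose, was at 18.1 to 18.5 CPM in sh-Con, 20.0 to 24.2 CPM with sh1-*TUG1* and 20.2 to 21.8 CPM in sh2-*TUG1*. Both knockdown groups lay above the control libraries. Its log2(fold change) was 0.25 (adjusted p = 0.0565) for sh1-*TUG1* and 0.20 (adjusted p = 0.0461) in sh2-*TUG1* by edgeR, and the latter call was lost in 10 of 15 alternatives, DESeq2 included (adjusted p = 0.0825, with p from 0.0434 to 0.149 over the alternatives).

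*SLC2A13*, which encodes a proton-coupled inositol carrier, had 14.8 to 18.7 CPM in sh-Con, 15.7 to 16.3 CPM with sh1-*TUG1* and 14.7 to 17.2 CPM in sh2-*TUG1*. The groups overlapped. Its log2(fold change) was −0.10 in both lines (standard errors 0.097 and 0.11, adjusted p = 0.510 and 0.476, edgeR).

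*SLC2A4RG*, the transcription factor gene of the set, moved in opposite directions in the 2 lines. It had 41.3, 36.2 and 35.8 CPM in sh-Con, 54.7, 55.0 and 49.7 in sh1-*TUG1*, and 23.7, 24.0 and 27.1 CPM in sh2-*TUG1*. The control libraries lay between the knockdown groups, and no groups overlapped. The log2(fold change) was 0.49 (standard error 0.070, adjusted p = 0.000932) for sh1-*TUG1* and −0.60 (standard error 0.080, adjusted p = 0.000318) in sh2-*TUG1*, and the lines differed by −1.09 (adjusted p = 8.99e-07), all by edgeR.

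Among the 11 transporters, 4 fell in sh1-*TUG1* (*SLC2A1*, *SLC2A3*, *SLC2A10* and *SLC2A14*), where 12.3% of all rows fell, and 2 rose (*SLC2A2* and *SLC2A6*), where 12.5% of all rows rose. The other 5 did not pass. In sh2-*TUG1*, 5 fell (the 4 named for sh1-*TUG1*, and *SLC2A9*), where 21.9% of all rows fell, and 4 rose (*SLC2A2*, *SLC2A6*, *SLC2A8* and *SLC2A11*), where 21.6% of all rows rose. The remaining 2 did not pass. Lower DEGs were 2 of 11 in sh1-*TUG1* (*SLC2A1* and *SLC2A3*), where 2.52% of all rows were lower DEGs, and 3 of 11 in sh2-*TUG1* (*SLC2A3*, *SLC2A10* and *SLC2A14*), where 8.97% of all rows were. The 1 higher DEG of the family was *SLC2A2* in sh1-*TUG1*, where 2.44% of all rows were higher DEGs. The knockdown libraries lay below the control libraries without overlap for 4 transporters in sh1-*TUG1* (20.2% of all rows) and 5 in sh2-*TUG1* (27.3%), and above them for 3 in each line (21.3% and 27.1%).

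Between the knockdown lines, 4 transporters were lower in sh2-*TUG1* (*SLC2A2*, *SLC2A3*, *SLC2A9* and *SLC2A14*), as were 21.7% of all rows, and 2 were higher (*SLC2A1* and *SLC2A6*), as were 21% of all rows. For these genes the 3 and 3 libraries did not overlap either, as was so for 27.6% of all rows in the lower and 27.8% in the higher direction. All 4 lower genes passed the fold limit, which 8.04% of all rows did in that direction. The median log2(fold change) over the 11 transporters was 0.09 for sh1-*TUG1* and −0.10 for sh2-*TUG1*, beside 0.0027 and −0.0048 over all rows. Of the 4 genes with the letters CACTCCA in their 3′ UTR, *SLC2A3* and *SLC2A14*, shown above, fell in both lines. The others, *SLC2A6* and *SLC2A11*, fell in neither line and rose in sh2-*TUG1*, where *SLC2A11* kept its call in only 5 of 15 alternatives. *SLC2A1* and *SLC2A10*, without these letters, also fell in both lines. The share that fell among all genes with these letters was not counted, and any part of the letters in these changes was not tested.

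**Figure D2:**
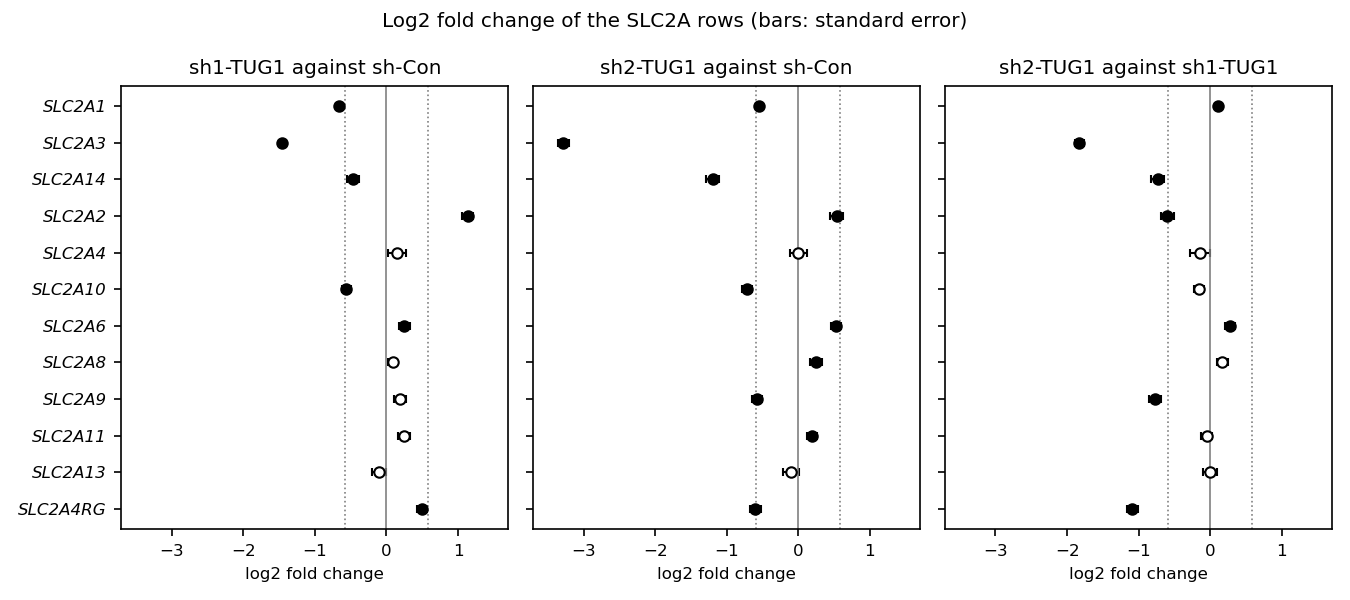
Log2(fold change) of the 12 SLC2A rows in sh1-*TUG1* against sh-Con, sh2-*TUG1* against sh-Con and sh2-*TUG1* against sh1-*TUG1*; points are edgeR estimates, bars the standard error, filled points have an adjusted p under 0.05, and dotted lines mark a fold change of 1.5. *SLC2A3* lies farthest to the left in each panel, at −1.45, −3.28 and −1.83, and *SLC2A2* farthest to the right in the first, at 1.13.

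**Figure D3:**
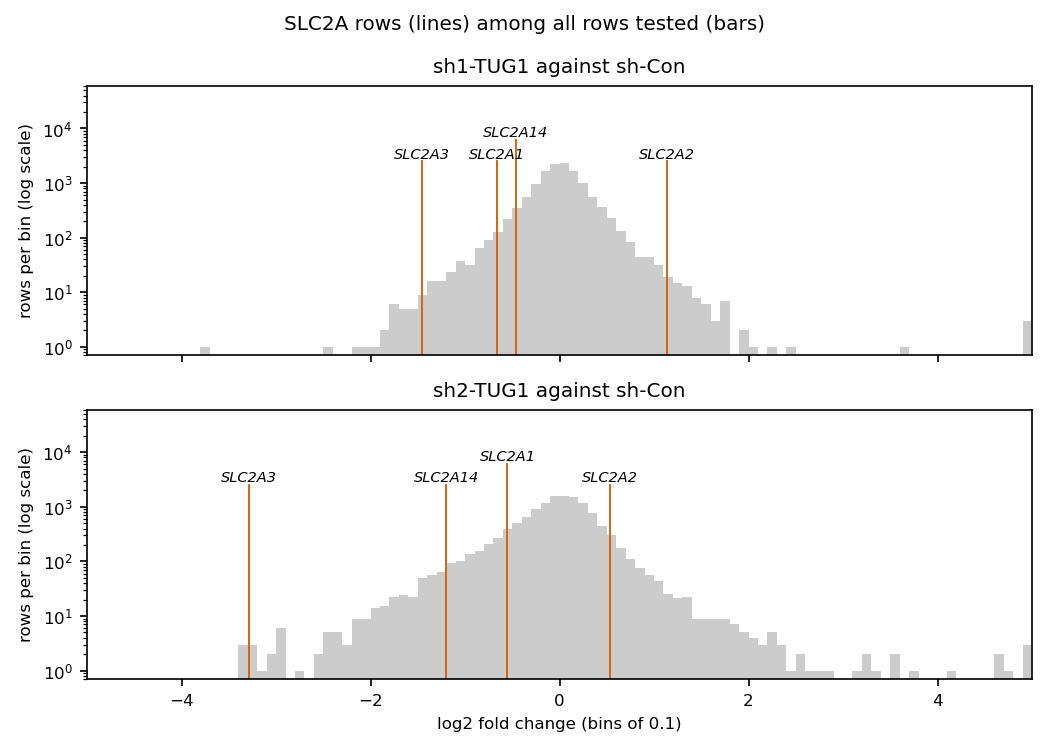
Numbers of rows (log axis) in bins of log2(fold change) for all rows tested, with lines at 4 SLC2A transporters; values beyond the axis are put in the outermost bins. *SLC2A3*, at −1.45 and −3.28, lies in the thin left tail of both comparisons, and *SLC2A1*, at −0.66 and −0.55, lies closer to the centre.

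To compare genes with each other, CPM was divided by the length of all annotated exons of a gene in kilobases. In sh-Con the order was *SLC2A1* (252 ± 12.6 CPM per kilobase, SD, n = 3), *SLC2A3* (54.1 ± 2.88), *SLC2A8* (21.9 ± 1.51), *SLC2A6* (9.96), *SLC2A10* (6.57), *SLC2A2* (4.81), *SLC2A9* (3.77), *SLC2A14* (3.18), *SLC2A4* (3.01), *SLC2A11* (2.05) and *SLC2A13* (1.71). Neighbours in this order stood apart in 9 of 10 pairs, *SLC2A14* and *SLC2A4* being the exception. *SLC2A1*, the carrier of basal glucose uptake, led in every library.

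In sh1-*TUG1* the order began with *SLC2A1* (160 CPM per kilobase), *SLC2A8* (23.3) and *SLC2A3* (19.7), followed by *SLC2A6* (11.9) and *SLC2A2* (10.6), whose libraries overlapped. In sh2-*TUG1* it began with *SLC2A1* (172), *SLC2A8* (26.1), *SLC2A6* (14.4), *SLC2A2* (6.99) and *SLC2A3* (5.56). *SLC2A3* thus moved from the place after *SLC2A1* to that after *SLC2A2*, though the lowest *SLC2A2* library (6.23) lay just above the highest *SLC2A3* library (6.18). With the longest annotated transcript as the length, the levels changed and *SLC2A9* rose from place 7 to 4 in sh-Con, while *SLC2A1* and *SLC2A3* kept places 1 and 2 there. In sh2-*TUG1* the order of *SLC2A3* and *SLC2A2* turned with this length, *SLC2A3* taking place 4 (7.76 CPM per kilobase, libraries at 7.06 to 8.62) and *SLC2A2* place 6 (7.44, libraries at 6.64 to 8.03), and the libraries of both overlapped. *SLC2A3* lay below *SLC2A8* and *SLC2A6* with either length.

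The summed level of the 11 transporters was 1782 ± 44.2 CPM in sh-Con, 1160 ± 10.5 CPM with sh1-*TUG1* and 1118 ± 12.03 CPM in sh2-*TUG1*. Per kilobase, *SLC2A1* held 68.2–71.3% of the summed family level in sh-Con, 65.0–65.9% with sh1-*TUG1* and 70.6–73.4% in sh2-*TUG1*. The share of *SLC2A3* was 13.96–15.8% in sh-Con, 7.88–8.32% with sh1-*TUG1* and 2.08–2.61% with sh2-*TUG1*, without overlap. The share of *SLC2A2* was 1.235–1.503%, 4.05–4.68% and 2.64–3.15%. The level of *SLC2A1* was 4.33 to 5.11 times that of *SLC2A3* in sh-Con, 7.89 to 8.25 times with sh1-*TUG1* and 28.1 to 33.9 times in sh2-*TUG1*.

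**Figure D4:**
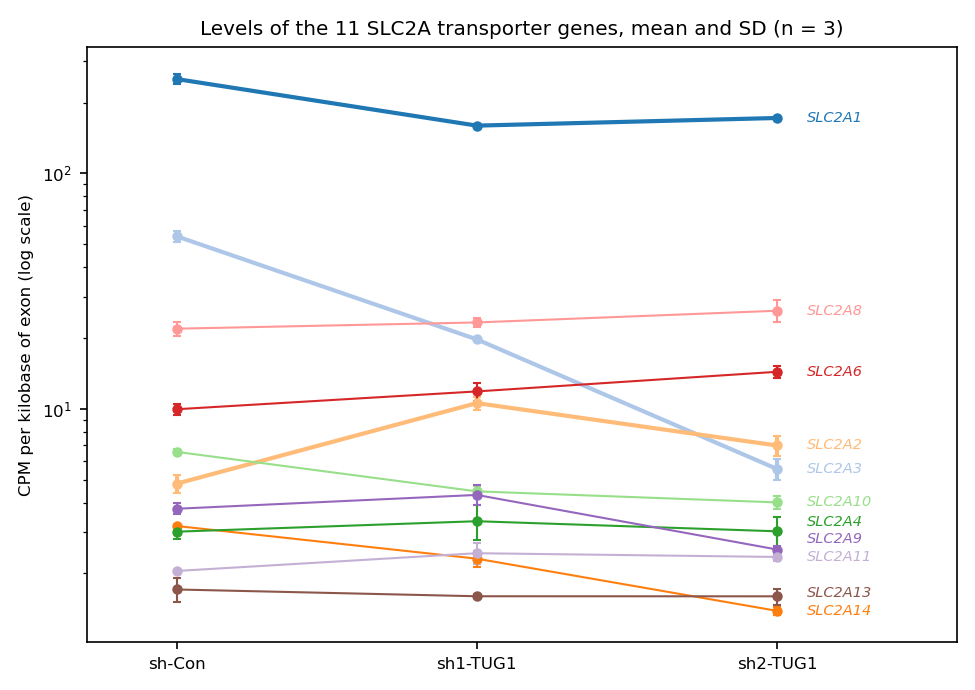
Levels of the 11 SLC2A transporter genes in CPM per kilobase of annotated exon (log axis) in sh-Con, sh1-*TUG1* and sh2-*TUG1*; points are means and bars the SD of 3 libraries. *SLC2A1* stays on top at 252, 160 and 172, while *SLC2A3* goes from 54.1 to 19.7 and 5.56 and passes below *SLC2A8* and *SLC2A6*; its place below *SLC2A2* in sh2-*TUG1* turns when the longest transcript is used as the length.

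The genes whose log2 CPM followed *SLC2A1* and *SLC2A3* most closely were ranked by Pearson's r over the 9 libraries, among 9054 genes with a mean of at least 10 CPM. The libraries form 3 groups and share their scaling, so r is given as a description. For *SLC2A1* these were *NEDD9* (r = 0.997), *TF* (0.995), *TGFBI* (0.995), *AKAP12* (0.994) and *QSOX1* (0.992). *NEDD9* encodes a scaffold protein of cell adhesion, *TF* encodes transferrin and is also one of the liver markers, and *AKAP12* encodes an anchoring protein of kinase A. The log2(fold change) of *NEDD9* was −1.06 for sh1-*TUG1* and −0.92 in sh2-*TUG1*, and that of *TF* −0.65 and −0.50. For *SLC2A3* the closest included *TMEM141* (r = 0.994), *ENDOD1* (0.993), *CEMIP* (0.993) and *SEMA3G* (0.993), and *SLC2A14* ranked 11 (0.990). *CEMIP*, which encodes a protein of hyaluronan breakdown, was at −0.83 for sh1-*TUG1* and −2.20 for sh2-*TUG1* on the log2 scale. *SLC2A1* and *SLC2A3* themselves had r = 0.73, rank 910 for *SLC2A1* and rank 1460 for *SLC2A3*.

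Hexose carriers outside the family include the sodium-coupled SLC5 carriers and *SLC37A4*, which moves glucose 6-phosphate into the endoplasmic reticulum. Of the 9 with a row in the sh1-*TUG1* table, 1 fell and 1 rose, and of the 8 in the sh2-*TUG1* table, 4 fell. For this list and those that follow, the shares of all rows that fell (12.3% and 21.9%) or rose (12.5% and 21.6%) and the medians of all rows (0.0027 and −0.0048) are the background. The median log2(fold change) was 0.08 and −0.28. *SLC37A4* fell in sh2-*TUG1* by 1.06 on the log2 scale (adjusted p = 2.09e-05, edgeR) and was at −0.06 in sh1-*TUG1* (adjusted p = 0.502). *SLC5A9*, a sodium-coupled carrier of mannose and glucose, was at 0.33 (adjusted p = 0.0486) for sh1-*TUG1* and −1.31 (adjusted p = 4.95e-05) in sh2-*TUG1* by edgeR. *SLC50A1* fell in both lines (−0.20 and −0.18), and *SLC45A3* in sh2-*TUG1* (−0.37).

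Glucose transporters are moved to and from the cell surface by Rab GTPases, their regulators and endosomal sorting proteins. Of 32 such genes, 3 fell and 7 rose in sh1-*TUG1*, and 4 fell and 11 rose in sh2-*TUG1*, with median log2(fold change) of 0.05 and 0.10. *ARRDC3*, an arrestin-like adaptor of membrane protein turnover, fell in both lines, at −1.13 (adjusted p = 6.46e-05) and −1.67 (adjusted p = 1.98e-05) by edgeR. *TBC1D4*, the Rab regulator known as AS160, rose by 0.27 and 0.55, and *AKT2*, the kinase that acts on it, by 0.24 and 0.33. *MYO5B*, a vesicle motor, fell in sh2-*TUG1* (−0.41) and was at −0.0050 in sh1-*TUG1*. Among the genes named here, only *ARRDC3* passed the fold limit of a DEG. Over the whole list, 1 gene was a lower DEG in sh1-*TUG1* and 2 were in sh2-*TUG1*, beside 2.52% and 8.97% of all rows.

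Of 27 transcription factors known to act on SLC2A genes, 3 fell and 5 rose in sh1-*TUG1*, and 3 fell and 8 rose in sh2-*TUG1*, with a median log2(fold change) of −0.0041 and 0.06. *KLF15*, a regulator of *SLC2A4*, rose by 0.69 (adjusted p = 0.000557) and 0.61 (adjusted p = 0.000304, edgeR), and *MEF2A*, which also acts on *SLC2A4*, by 0.29 and 0.45. *SLC2A4* itself did not pass in either line, and a link between it and these factors was not tested. *HIF1A*, the hypoxia factor known to act on *SLC2A1* and *SLC2A3*, was at −0.04 in sh1-*TUG1* (adjusted p = 0.459) and rose in sh2-*TUG1* by 0.34 (adjusted p = 0.000902, edgeR). *EPAS1*, its relative, fell by 0.18 and 0.30. These are RNA levels, and a link between them and *SLC2A1* or *SLC2A3* was not tested.

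Once inside the cell, hexoses are trapped or converted by kinases, reductases and isomerases. Of 25 such genes in the sh1-*TUG1* table, 5 fell and 8 rose, and of 26 in the sh2-*TUG1* table, 13 fell and 7 rose. The median log2(fold change) was 0.0014 and −0.20. *HK2*, the hexokinase typical of tumour cells, fell in both lines (−1.09, adjusted p = 5.36e-07, and −1.38, adjusted p = 1.73e-07, edgeR), as did *GPI*, the isomerase of glucose 6-phosphate (−0.40 and −0.62). *AKR1B1*, the aldose reductase that turns glucose into sorbitol, rose by 0.96 (adjusted p = 3.74e-06) and 2.01 (adjusted p = 5.68e-08, edgeR). *G6PC3*, a glucose-6-phosphatase, fell by 0.18 and 0.70. *TKFC*, a kinase of fructose breakdown, was at −0.06 for sh1-*TUG1* and fell in sh2-*TUG1* (−1.25), and *H6PD* was at 0.10 and fell in sh2-*TUG1* (−0.64).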

How the data were processed

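RNA-seq libraries of HepG2 cells were grouped by their titles. Per the labels, the submitters' processing notes name HISAT2, StringTie and GRCh38, with no roles or versions. The authors deposited 1 table per knockdown line, with raw read counts for that line and the control. The same deposited tables hold FPKM values, which were not used. Of the authors' own tests the tables hold an adjusted p-value (false discovery rate) and the fold change on the log2 scale, and neither was used. Whether the counting used strand is not given in the sources used here. Genes that overlap a family gene and share exonic bases with it, such as *SLC2A1-AS1*, had no row in the tables.

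All rows were kept in library sizes and tests. Loci with a NewGene number held 1.46% and 1.41% of the counts. Each knockdown line and sh-Con were fitted over 6 libraries, and the contrast between both lines over all 9, by edgeR 4.0.16 in R 4.3.3 (TMM, filterByExpr, quasi-likelihood test), and p-values were adjusted over all rows after Benjamini and Hochberg. Fold changes come from these fits, and CPM from 1 TMM scaling of the 9 libraries, with log2 CPM using a prior count of 2. The scripts were first tested on simulated data. Sequences and exon lengths came from GENCODE 29 (GRCh38), and coding sequences were aligned with Biopython 1.88. Other settings tried were library size alone, RLE size factors, other filters, DESeq2 1.42.0, other samples in the fit, the replicate number as a block, rows with an Ensembl identifier alone, and leaving out each library.

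Every family row is named. Of each gene list, up to 4 genes with the smallest adjusted p among those that passed in either line are named, and up to 6 for the first steps of hexoses. The members and lists were chosen with earlier results of these data known. Of the genes ranked by likeness and of the matches in 3′ UTRs, some are not reported here.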

Additional observations from a re-analysis of the deposited data

Results flagged for a closer look

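The size of the change differed between the knockdown lines for 7 family rows, by the test of sh2-*TUG1* against sh1-*TUG1* itself (edgeR's quasi-likelihood test over 9 libraries with Benjamini–Hochberg adjustment). *SLC2A3* was lower in sh2-*TUG1*, with a difference of −1.83 on the log2 scale (adjusted p = 5.34e-08), and *SLC2A14* likewise, with −0.74 (adjusted p = 5.22e-05). *SLC2A9* (−0.77, adjusted p = 1.71e-05) and *SLC2A2* (−0.60, adjusted p = 0.000201) were also lower in sh2-*TUG1*. *SLC2A4RG*, which rose in one line and fell in the other, differed by −1.09 (adjusted p = 8.99e-07). *SLC2A6* was higher in sh2-*TUG1* by 0.28 (adjusted p = 0.00984), and *SLC2A1* by 0.11 (adjusted p = 0.0479), a call lost in 9 of 18 alternatives. Of all rows, 21.7% were lower and 21% higher in sh2-*TUG1* by the same test. Each hairpin is 1 stable line, so the hairpin and the line cannot be told apart.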

How the results depend on the processing

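The counts of transporters that fell, 4 for sh1-*TUG1* and 5 for sh2-*TUG1*, were the same under every alternative that kept *SLC2A3* and *SLC2A14* as separate rows (no count was made with both summed), and the count that differed between the lines was 5 to 6. The count that rose in sh1-*TUG1* was 2, and 1 to 2 when a library was left out, *SLC2A6* being lost, but 3 with library size alone and 3 with 1 fit of all 9 libraries, where *SLC2A11* passed (adjusted p = 0.039 and 0.0331, edgeR). The count that rose in sh2-*TUG1* was 4, but 2 with library size alone, 2 with the replicate block and 2 to 3 when a library was left out (2 without replicate 1 or 2 of either group), and the calls lost with the first 2 were *SLC2A8* and *SLC2A11*. With DESeq2 the count was lower as well, since *SLC2A11* lost its call there, and *SLC2A11* kept its call in only 5 of 15 alternatives. Of the values of single genes, 173, 157 and 199 kept their direction and side of the threshold in the 3 comparisons, 4, 16 and 9 lost their call, and 2, 0 and 3 gained one. Those that changed sign lay near 0. *SLC2A4* in sh2-*TUG1* was −0.034 with library size alone, −0.0062 with the replicate block, and −0.11 to 0.11 when a library was left out. In sh2-*TUG1* against sh1-*TUG1*, *SLC2A11* ran from −0.10 to 0.033 (without sh1-*TUG1* replicate 1) and *SLC2A13* from −0.057 to 0.053 (without sh2-*TUG1* replicate 3) when a library was left out. The cause was not tested.

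Same-numbered libraries of different groups did not deviate together (r −0.19 to 0.04 in 9 pairs over 9312 genes). In pairs with different numbers, r ran from −0.22 to 0.31, the highest for sh-Con replicate 1 and sh2-*TUG1* replicate 3. These values cannot show which libraries were handled together. With that number as a block, *SLC2A1* no longer differed between the lines by the threshold (0.11, adjusted p = 0.0759, edgeR), and *SLC2A8* (0.25, adjusted p = 0.057) and *SLC2A11* (0.19, adjusted p = 0.105) lost their calls in sh2-*TUG1*. Scaling by library size alone moved the median of all rows to 0.03, −0.04 and −0.06. With 3 libraries a group, the libraries of *SLC2A4*, *SLC2A8* and *SLC2A13* overlapped in every comparison. In sh2-*TUG1* the call of *SLC2A11* was kept in 5 of 15 alternatives and that of *SLC2A8* in 9 of 15.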

Other observations

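Some SLC2A proteins carry urate, vitamin C or inositol, and 15 other genes of these substrates were measured. In sh1-*TUG1*, 1 of them fell and 4 rose, and in sh2-*TUG1* 3 fell and 5 rose, with median log2(fold change) of 0.17 and 0.02, beside 0.0027 and −0.0048 over all rows. *SLC5A3*, the sodium-coupled inositol carrier, rose in both lines, by 0.69 (adjusted p = 0.000207) and 1.04 (adjusted p = 1.44e-05, edgeR). *INPP1*, an inositol phosphatase, rose by 0.33 and 0.91. *SLC23A2*, the sodium-coupled vitamin C carrier, rose in sh1-*TUG1* (0.65, adjusted p = 7.87e-06, edgeR) and was at 0.02 in sh2-*TUG1*. *SLC17A2* rose in sh2-*TUG1* (0.83, adjusted p = 0.000644, edgeR) and was at 0.08 in sh1-*TUG1*. *SLC2A13*, the inositol carrier of the SLC2A family, passed in neither line.

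Promoters from RefSeq (GRCh38.p14, 300 bases each) were found for 10 of the 12 family genes, not for *SLC2A3* and *SLC2A4*. The letters ACGTG and GCGTG, the core of the hypoxia response element, and CACGTG, an E-box that contains ACGTG, were searched on both strands. ACGTG occurred in promoters of *SLC2A9*, *SLC2A10*, *SLC2A13* and *SLC2A14* and in 21.4% of all 35116 promoters. GCGTG occurred in those of *SLC2A1*, *SLC2A6*, *SLC2A11* and *SLC2A13* and in 36.5% of all promoters. CACGTG occurred in that of *SLC2A13* and in 7.26% of all promoters. These shares are of promoters and not of genes. *SLC2A9* and *SLC2A11* had more than a single promoter each, and not every *SLC2A9* promoter held ACGTG.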
